A study of Homo sapiens with 19 samples.

Results

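The comparison described here sets the lysates taken 2 h after nanostraw electroporation (NEE) against those taken before it or right away after it, in the human lung adenocarcinoma line A549. In NEE, cells sit on hollow nanotubes and short electric pulses make their membrane permeable, which gives access to cytosolic RNA without killing the cells. Libraries were assigned by their titles: Mono 2h and Sph 2h (4 libraries) against Mono Before, Mono RightAway, Sph Before and Sph RightAway (8 libraries), which makes 12 of the 19 libraries of the series. "Mono" stands for monolayers and "Sph" for spheroids, cells grown as small balls. Each of the 6 groups had 2 biological replicates. Before cells had not been through NEE, RightAway cells were lysed directly after it and 2h cells after 2 more hours, and all groups share the same cell line without any labelled drug or genetic change. All 14973 genes with a CPM (counts scaled to the library total) of at least 1 in at least 2 of the 12 libraries were tested, of 62700 listed. No labelled group was kept for 2 h without NEE, so an effect of NEE and of the 2 h of further culture and handling cannot be told apart. In bulk lysates, a change in a share of the cells and a change in the RNA per cell cannot be told apart either.

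The 12 libraries held 16031034 to 24571083 counts over genes, and 3 counts correspond to 0.114 to 0.19 CPM. Levels below are CPM scaled by TMM, edgeR's correction for library composition, and are not divided by gene length. Epithelial keratin KRT8 and the A549 enzymes ALDH1A1 and AKR1B10 were abundant in every library, while SFTPB, a surfactant gene of alveolar cells, was at 0 in all 4 libraries at 2 h and reached at most 0.591 CPM earlier. Replicate 1 of the monolayers before NEE stood apart. Its 20 leukocyte markers summed to 765.9 CPM, against 35.07 to 118.7 CPM in the other 7 earlier libraries and 31.66 to 108.4 CPM at 2 h, and its epithelial markers summed to 13530 CPM, against 28990 to 46360 CPM in those 7. Among its highest leukocyte markers were PRF1 (190 CPM), CD74 (126 CPM) and GNLY (101 CPM). Others went the other way: CD14 was at 0.76 CPM (median of the earlier libraries 33 CPM), and LYZ, CD79A and MS4A1 were at 0. COL1A1 (26.6 CPM) and PECAM1 (16.1 CPM), markers of fibroblasts and endothelium, were also highest there. Where leaving out that library changed the call of a gene named here, the value without it is given. The number of called genes and the medians of some lists without it are given as well. Its part in the remaining results is not given.

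Cells that receive a stimulus transcribe a set of early response genes within minutes to hours, without needing new protein first. These include transcription factors of the AP-1, EGR and NR4A families, secreted matricellular proteins such as CCN1 and CCN2, and feedback regulators that shorten the response. Other inducible programmes run through the aryl hydrocarbon receptor (AHR), which binds small planar molecules and switches on CYP1 enzymes and its own repressor TIPARP, through NRF2 (gene NFE2L2), which drives antioxidant enzymes, and through the Hippo pathway effectors YAP and TAZ, which act with TEAD factors on genes such as CCN1, CCN2 and AMOTL2. A549 cells carry a mutation in KEAP1, the protein that holds NRF2 in check.

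At 2 h, 21 genes were higher (0.14% of the genes tested) and 2 were lower (0.0134%) than in the earlier libraries, at a Benjamini-Hochberg adjusted p under 0.05 in edgeR's quasi-likelihood test with culture form as a block. The higher genes included TIPARP and CYP1B1 of the AHR response, the nuclear receptor NR4A1 and the early genes NAB2, FOSL1, PPP1R15A and PLK2, the YAP and TAZ targets CCN1, CCN2 and AMOTL2, NFE2L2 and its partner MAFG, the growth factor AREG, and MAP3K14, TMEM156, EMP1, MYADM, TM4SF1, CDC42EP3 and PDP1. The lower genes included DEPP1. In each culture, both 2 h libraries lay above all 4 earlier libraries for each of the 21, as for 157 of all genes tested (1.05%). For 13 of the 21, all 4 libraries at 2 h lay above all 8 earlier ones, as for 57 of all genes (0.381%). The 21 were chosen by a test of these same libraries, so nothing is read from either count. An unadjusted edgeR p under 0.05 was found for 786 genes (5.25%). DESeq2 was run without the CPM threshold and gave an adjusted p for 17537 genes, so its shares are over other genes than edgeR's. It called 66 of these higher (0.376%) and 39 lower (0.222%), with all 23 among them. Log2 fold changes over all genes had a median of −0.01, and 47.6% were above 0.

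The number of called genes varied with the fit, while all 23 stayed called when the replicate numbers, which the labels give as a batch, were added. With that replicate block 42 genes were called, 39 up and 3 down, and with a replicate block within culture 61 were called, 56 up and 5 down. When Mono Before replicate 1 was left out, 53 genes were called, again with all 23 among them. Without replicate 1 of the spheroids at 2 h only 6 were: TIPARP, CYP1B1, NR4A1, AMOTL2, NFE2L2 and CCN1. These 6 were called in all 12 fits that left out 1 library each.

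**Figure D1:**
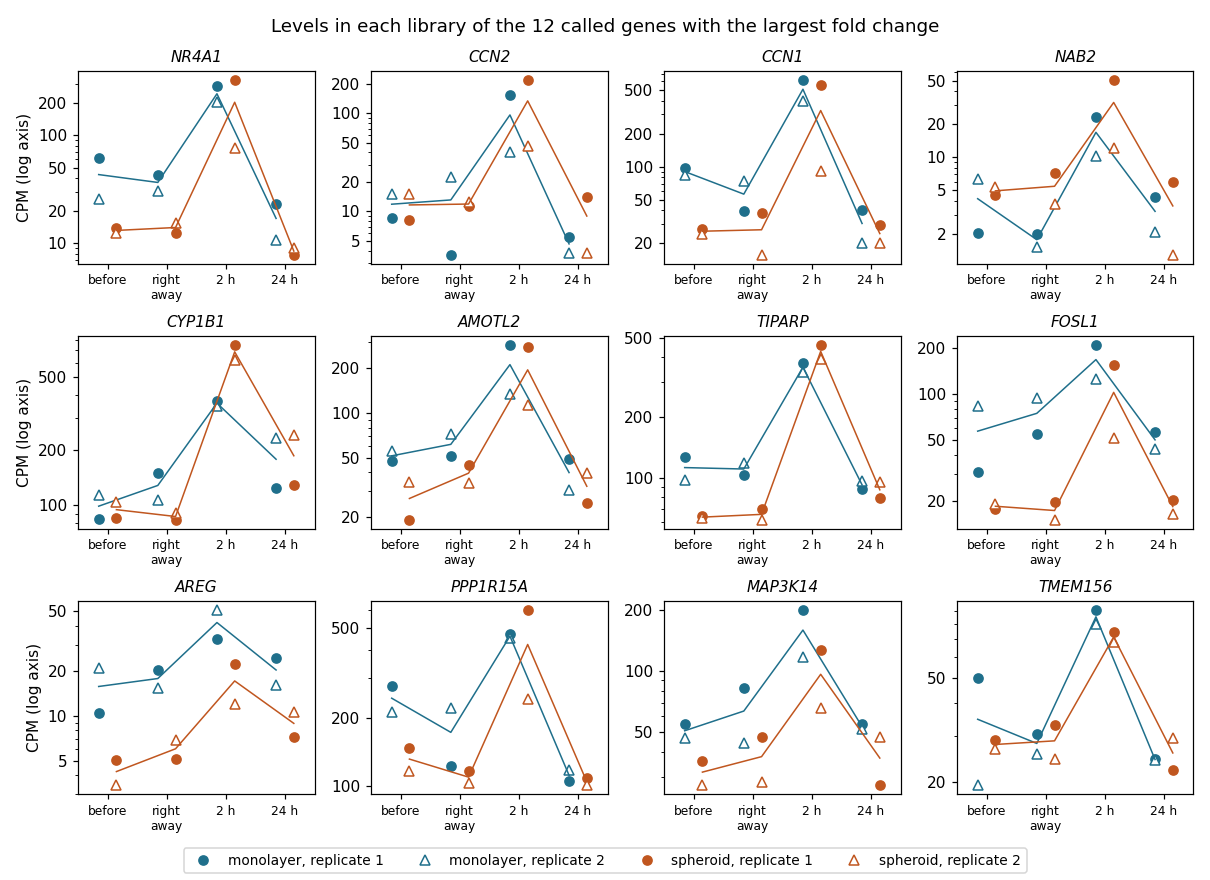
Levels (CPM scaled by TMM, log axis) in the 16 lysate libraries of the 12 called genes with the largest log2 fold change, by time, with 24 h shown for reference. Blue stands for monolayers, orange for spheroids, filled circles for replicate 1, open triangles for replicate 2, and lines join the means of the 2 replicates. In every panel both 2 h libraries of a culture lie above its 4 earlier libraries, and for NR4A1 in spheroids replicate 1 (329 CPM) lies far above replicate 2 (76.4 CPM).

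TIPARP (chr3:156673235-156706770, GRCh38), an ADP-ribosyltransferase that is induced by AHR and represses it, had the smallest p of all genes. Its level at 2 h was 374 and 339 CPM in monolayers and 462 and 393 CPM in spheroids, against 97.7 to 127 CPM in earlier monolayers and 61.5 to 69.7 CPM in earlier spheroids. All 4 libraries at 2 h lay far above all 8 earlier ones, and the replicates lay close together. The difference was 4.70-fold (log2 fold change 2.23, SE 0.17, edgeR adjusted p = 4.3e-05).

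CYP1B1 (chr2:38066973-38109902), a cytochrome P450 that oxidises polycyclic aromatic compounds and oestrogens, stood at 372 and 350 CPM in monolayers and at 752 and 622 CPM in spheroids at 2 h. The 8 earlier libraries ran from 83.3 CPM to 150 CPM with a median of 97.5 CPM, so the groups did not overlap in either culture. Its log2 fold change was 2.34 (SE 0.21, edgeR adjusted p = 0.000194).

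The list of AHR targets held 10 tested genes, of which these 2 were called (0.14% of all genes were called higher), 9 had a log2 fold change above 0 (47.6% of all genes did) and the median was 1.06. CYP1A1, the cytochrome P450 most often used to read AHR activity, was at 27.0 and 39.1 CPM in monolayers and 60.0 and 48.9 CPM in spheroids at 2 h. Its 8 earlier libraries lay between 0 and 13.7 CPM, which does not overlap. All 4 libraries at 2 h lay above all 8 earlier ones for 57 of all genes tested (0.381%). CYP1A1 was not called in the main fit (log2 fold change 3.85, edgeR adjusted p = 0.0835) or by DESeq2. It was called by edgeR with the replicate block (log2 fold change 4.05, adjusted p = 0.0477). EREG, an EGF family ligand that is also on this list, was at 231 and 213 CPM in monolayers at 2 h against 76.7 to 171 CPM earlier, and at 124 and 61.4 CPM in spheroids against 14.4 to 29.1 CPM. Its libraries did not overlap within a culture, and it was called with the replicate block (log2 fold change 1.5, edgeR adjusted p = 0.00369) but not without it (1.48, adjusted p = 0.0829), and again when Mono Before replicate 1 was left out (0.0264). NQO1, ALDH3A1 and UGT1A6, which AHR also controls in other cells, had log2 fold changes of 0.16 to 0.21 and overlapping libraries. Mono Before replicate 1 was low for NQO1 (1380 CPM, other earlier monolayers 2320 to 2740 CPM) and ALDH3A1 (793 CPM, others 5010 to 6160 CPM). Their fold changes without that library are not given here. The median of the list was 1.20 when that library was left out. The receptor itself was not called: AHR was at 10.3 and 8.45 CPM in monolayers and 27.6 and 18.6 CPM in spheroids at 2 h, against 4.92 to 6.62 and 12.2 to 15.9 CPM (log2 fold change 0.67, edgeR adjusted p = 0.404). Its partner ARNT and its chaperones PTGES3, HSP90AA1 and HSP90AB1 had log2 fold changes between −0.13 and 0.15. CYP1A1, EREG and the other genes of this list beyond TIPARP and CYP1B1 were picked for mention after their values were seen.

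CCN1 (chr1:85580761-85583962) and CCN2 (chr6:131948176-131951373) encode matricellular proteins that bind integrins, and AMOTL2 (chr3:134355874-134375479) encodes an angiomotin that holds YAP outside the nucleus. All 3 are targets of YAP and TAZ with TEAD. CCN1 was at 623 and 393 CPM in monolayers and 558 and 91.8 CPM in spheroids at 2 h, against 39.1 to 96.7 CPM and 15.7 to 37.5 CPM earlier. CCN2 was at 152 and 40.6 CPM in monolayers and 221 and 46.9 CPM in spheroids, against 3.61 to 22.6 CPM over all 8 earlier libraries. AMOTL2 was at 289 and 135 CPM in monolayers and 278 and 113 CPM in spheroids, against 19.1 to 72.2 CPM. The groups did not overlap for CCN2 and AMOTL2, and for CCN1 they did not overlap within a culture, but replicate 1 was higher than replicate 2 for all 3 genes in both cultures. Their log2 fold changes were 3.23 (SE 0.38, adjusted p = 0.00215) for CCN1, 3.24 (SE 0.46, adjusted p = 0.0111) for CCN2 and 2.25 (SE 0.27, adjusted p = 0.00215) for AMOTL2 by edgeR. The call of CCN2 was lost without replicate 1 of either culture at 2 h, with an adjusted p of up to 0.108.

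The promoter of CCN2 is shown because TEAD's recognition letters GGAATG, searched on both strands, occur in it 3 times, at 169, 104 and 95 bases before the start. Each promoter in the RefSeq table (GRCh38.p14) was searched over the 250 bases before the start. How many hold the letters 3 times was not counted. The letters occur, in any number, in 11.9% of the 35116 promoters. Counted by gene, where a gene with several windows needs a match in any of them, they occur in 13.2% of the 11051 tested genes in the table and in 3 of the 16 called-higher genes that it holds (AMOTL2, CCN2 and TM4SF1). CCN1, CYP1B1 and FOSL1 have no entry in that table. The 250 bases of CCN2 lie at chr6:131951373-131951622 on the minus strand, printed from 5′ to 3′ with the matches in capitals.
CCN2: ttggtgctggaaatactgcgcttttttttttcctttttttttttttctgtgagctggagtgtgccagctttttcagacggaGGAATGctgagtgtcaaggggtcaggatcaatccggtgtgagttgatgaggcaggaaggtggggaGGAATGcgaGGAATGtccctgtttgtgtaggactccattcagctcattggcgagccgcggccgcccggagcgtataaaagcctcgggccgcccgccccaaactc

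Of the 24 tested targets of YAP and TAZ, these 3 were called, while 0.14% of all genes tested were called higher. A log2 fold change above 0 was found for 17, against 47.6% of all genes, and the median was 0.22. DESeq2, a second count test, also called AJUBA, LATS2 and NUAK2, 3 regulators of the pathway. The kinase LATS2, which phosphorylates YAP, was at 9.19 and 8.15 CPM in monolayers and 6.08 and 4.24 CPM in spheroids at 2 h, against 0.874 to 4.18 CPM and 0.757 to 1.65 CPM (log2 fold change 1.74, edgeR adjusted p = 0.137). NUAK2, a kinase that supports YAP, was at 323 and 222 CPM in monolayers and 303 and 143 CPM in spheroids, against 127 to 219 CPM and 73.7 to 123 CPM (log2 fold change 0.97, edgeR adjusted p = 0.146, or 0.0183 when blocked by replicate and 0.0317 when Mono Before replicate 1 was left out). In both genes the 2 h libraries of a culture lay above its earlier ones, as for 157 of all genes tested (1.05%). AXL, MYOF, PTPN14 and IGFBP3, other targets of YAP, had log2 fold changes of −0.01 to 0.09. In the Hippo core list 0 of 15 genes were called by edgeR (1 at an unadjusted p under 0.05, LATS2, which DESeq2 called), with a median log2 fold change of 0.07. NUAK2, AXL, MYOF, PTPN14 and IGFBP3 were picked after their values were seen.

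NR4A1 (chr12:52022832-52059507), an orphan nuclear receptor and immediate early gene, had the largest log2 fold change of the called genes. It was at 284 and 202 CPM in monolayers and 329 and 76.4 CPM in spheroids at 2 h, against 25.6 to 61.2 CPM and 12.5 to 15.6 CPM earlier. All 4 libraries at 2 h lay above all 8 earlier ones, with a wide gap between the spheroid replicates. The difference was 9.78-fold (log2 fold change 3.29, SE 0.35, edgeR adjusted p = 0.000857).

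NAB2 (chr12:57088894-57095476), which binds EGR factors and limits them, was at 23.5 and 10.4 CPM in monolayers and 51.4 and 12.1 CPM in spheroids, against 1.53 to 7.14 CPM in the earlier libraries. FOSL1 (chr11:65892049-65900573), the AP-1 subunit FRA1, was at 209 and 125 CPM in monolayers and 153 and 51.4 CPM in spheroids, against 31.2 to 94.2 CPM and 15.1 to 19.7 CPM. NAB2 did not overlap between the groups, while FOSL1 in the lower spheroid replicate lay within the range of the earlier monolayers. The log2 fold changes were 2.56 (SE 0.41, adjusted p = 0.023) for NAB2 and 1.96 (SE 0.33, adjusted p = 0.0303) for FOSL1 by edgeR. Leaving out 1 library kept the call of NAB2 in 4 of 12 fits and of FOSL1 in 5 of 12, with adjusted p of up to 0.291 and 0.133.

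The list of immediate early transcription factors held 30 tested genes. NR4A1 and FOSL1 were called (0.14% of all genes were called higher). A log2 fold change above 0 was found for 26 (47.6% of all genes). The median was 0.88 (1.00 when Mono Before replicate 1 was left out). By DESeq2 8 were called, by edgeR with the replicate block 4 and without that library 6. FOSB, an AP-1 subunit, was at 38.7 and 40.8 CPM in monolayers and 49.7 and 6.01 CPM in spheroids at 2 h, against 1.97 to 12.9 CPM in earlier monolayers and 0, 0, 0.216 and 0 CPM in earlier spheroids. The spheroid value at 2 h thus lay above a baseline of almost no reads, but with a wide gap between its replicates, and the gene was not called in the main fit (edgeR adjusted p = 0.0735). It was called with the replicate block (adjusted p = 0.0383) and when Mono Before replicate 1 was left out (0.0251). ATF3, a stress-induced repressor, was at 48.2 and 82.6 CPM in monolayers and 77.6 and 9.87 CPM in spheroids, against 7.65 to 33.7 CPM and 0 to 1.66 CPM (edgeR adjusted p = 0.14). NR4A2, a relative of NR4A1, was at 41.9 and 24.5 CPM in monolayers and 34.5 and 11.3 CPM in spheroids at 2 h, against 3.33 to 23.3 CPM and 5.54 to 11.3 CPM, which overlapped in spheroids (edgeR adjusted p = 0.284). It was called by DESeq2, with the replicate block (edgeR adjusted p = 0.0383) and when Mono Before replicate 1 was left out (0.0279). EGR1, the immediate early factor that NAB2 restrains, was low, at 1.69 and 5.55 CPM in monolayers and 4.63 and 0 CPM in spheroids at 2 h, against 0.328 to 2.21 CPM and 0.118 to 0.931 CPM, which overlapped in both cultures (edgeR adjusted p = 0.926). JUNB, SRF and KLF10 had log2 fold changes of 0.21 to 0.40 and overlapping libraries. FOSB, ATF3, NR4A2 and EGR1 were picked after their values were seen.

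NFE2L2 (chr2:177227595-177392697), the gene of NRF2, was at 219 and 176 CPM in monolayers and 348 and 298 CPM in spheroids at 2 h. The 8 earlier libraries ran from 61.9 CPM to 150 CPM with a median of 92.9 CPM, so the groups did not overlap. Its log2 fold change was 1.36 (SE 0.15, edgeR adjusted p = 0.000926), close to equal in monolayers (1.38) and spheroids (1.34). MAFG (chr17:81918270-81927714), a small MAF protein that pairs with NRF2 on DNA, was at 51.4 and 49.6 CPM in monolayers and 68.1 and 68.8 CPM in spheroids, against 20.6 to 36.9 CPM over the earlier libraries. Its log2 fold change was 0.91 (SE 0.14, edgeR adjusted p = 0.0195), and the call held in 7 of 12 fits that left out 1 library. The related small MAF genes MAFF and MAFK had log2 fold changes of 1.88 and 1.86 at lower levels and were not called by edgeR (adjusted p = 0.154 and 0.114). DESeq2 called both, and edgeR with the replicate block within culture called MAFK (adjusted p = 0.0442).

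Of the 24 tested target genes of NRF2, 0 were called by edgeR, 3 had an unadjusted p under 0.05 and 1, TXNRD1, was called by DESeq2. Of these 24, 19 had a log2 fold change above 0 (47.6% of all genes did). The median was 0.08 over both cultures, 0.21 in monolayers and −0.02 in spheroids. It was −0.01 over both cultures when Mono Before replicate 1 was left out. TXNRD1, thioredoxin reductase, was at 2720 and 2960 CPM in monolayers and 2710 and 2510 CPM in spheroids at 2 h, against 1660 to 2180 CPM earlier. Its 4 libraries at 2 h lay above all 8 earlier ones, as for 57 of all genes tested (0.381%). It missed the threshold by edgeR (log2 fold change 0.49, SE 0.093, adjusted p = 0.0595) and passed it under the replicate block (0.0285) and when Mono Before replicate 1 was left out (0.0251). HMOX1, GCLC, AKR1C1 and FTL, which were picked after their values were seen, had log2 fold changes of −0.06 to 0.09.

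The NFE2L2 promoter is shown because it holds the AHR core letters TNGCGTG, searched on both strands, 137 bases before the start. They occur in 4.52% of all promoters in the table and, counted by gene, in 7.78% of the tested genes and in 3 of the 16 called-higher genes (CDC42EP3, MYADM and NFE2L2). Of the 2 NFE2L2 windows in the table, the one with the match lies at chr2:177264132-177264381 on the minus strand, with the match in capitals. TIPARP, which has 3 windows in the table, had no match in them.
NFE2L2: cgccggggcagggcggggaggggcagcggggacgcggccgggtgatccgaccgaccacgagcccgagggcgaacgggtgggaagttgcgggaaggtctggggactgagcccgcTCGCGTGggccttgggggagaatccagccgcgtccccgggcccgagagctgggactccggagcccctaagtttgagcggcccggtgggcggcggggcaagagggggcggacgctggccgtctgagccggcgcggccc

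AREG (chr4:74445134-74455009), amphiregulin, a ligand of the EGF receptor, was at 32.9 and 51.3 CPM in monolayers and 22.3 and 11.9 CPM in spheroids at 2 h. Earlier monolayers held 10.4 to 21.0 CPM and earlier spheroids 3.43 to 6.87 CPM. The groups did not overlap within a culture, but the higher replicate was replicate 2 in monolayers and replicate 1 in spheroids. The log2 fold change was 1.54 (SE 0.25, edgeR adjusted p = 0.0252), with the call kept in 6 of 12 fits that left out 1 library. Of the 10 tested EGF ligands and receptors AREG alone was called by edgeR, and AREG and EREG by DESeq2. Over all genes, 0.14% were called higher by edgeR and 0.376% by DESeq2. The receptors ERBB2 and ERBB3 had log2 fold changes of −0.22 and −0.72 with overlapping libraries.

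PPP1R15A (chr19:48872392-48876057), GADD34, which reverses the translation block of stressed cells, was at 468 and 448 CPM in monolayers and 599 and 243 CPM in spheroids at 2 h. Earlier monolayers held 123 to 276 CPM and earlier spheroids 103 to 147 CPM. Only the lower spheroid replicate lay within the range of the earlier monolayers. The log2 fold change was 1.48 (SE 0.24, edgeR adjusted p = 0.021), with the call kept in 5 of 12 fits that left out 1 library. It is also on the list of ATF4 targets, of which it was the 1 called of 22 (0.14% of all genes were called higher). DESeq2 also called the amino acid transporter SLC7A5, and the list's median log2 fold change was 0.28. ATF4 itself had a log2 fold change of 0.51 (edgeR adjusted p = 0.328), and CHAC1, TRIB3 and PSAT1 had overlapping libraries.

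The promoters of AREG and PPP1R15A are shown because both hold the full cAMP response element TGACGTCA, 65 and 58 bases before the start. It occurs in 1.65% of all promoters in the table and, counted by gene, in 3.38% of the tested genes and in 2 of the 16 called-higher genes, which are these. PPP1R15A also holds the antioxidant response letters TGACNNNGC, searched on both strands, at 179 and 152 bases before the start. A match at any position occurs in 10.9% of all promoters and 16.0% of the tested genes (2 of the 16 called-higher genes). How many hold 2 matches was not counted. Capitals mark the matches. AREG lies at chr4:74444886-74445135 and PPP1R15A at chr19:48872171-48872420, both on the plus strand.
AREG: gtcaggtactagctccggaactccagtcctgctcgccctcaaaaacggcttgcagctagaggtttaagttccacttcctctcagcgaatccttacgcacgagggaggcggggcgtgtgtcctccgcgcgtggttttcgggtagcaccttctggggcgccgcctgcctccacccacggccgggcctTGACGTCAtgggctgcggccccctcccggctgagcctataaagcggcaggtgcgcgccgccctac
PPP1R15A: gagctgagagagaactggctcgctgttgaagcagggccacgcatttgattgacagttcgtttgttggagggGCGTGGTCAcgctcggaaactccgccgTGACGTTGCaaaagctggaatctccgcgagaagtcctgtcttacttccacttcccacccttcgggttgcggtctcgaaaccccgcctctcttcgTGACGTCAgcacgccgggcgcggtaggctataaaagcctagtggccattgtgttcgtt

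The AP-1 letters TGANTCA, searched on both strands like the rest, occurred in 2 of the 16 (EMP1 and TMEM156), in 6.35% of the tested genes and in 6.57% of all promoters. The EGR letters GCGGGGGCG occurred in 1 of the 16 (NAB2), in 9.75% of the tested genes and in 4.72% of all promoters, and the CArG box of SRF in none of the 16, in 1.47% of the tested genes and in 1.16% of all promoters. A match describes the sequence and is not a bound site.

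Of the other called genes, MAP3K14 (NIK, the kinase of non-canonical NF-kB signalling) was at 201 and 118 CPM in monolayers and 127 and 66.0 CPM in spheroids at 2 h, against 44.1 to 83.0 CPM and 27.4 to 47.4 CPM (log2 fold change 1.48, SE 0.23, edgeR adjusted p = 0.0181). TMEM156, a membrane protein, was at 91.0 and 80.0 CPM and at 74.6 and 68.6 CPM, against 19.4 to 49.9 CPM over the earlier libraries (log2 fold change 1.40, SE 0.20, edgeR adjusted p = 0.0105). Both had calls in 10 of 12 fits that left out 1 library. They were lost without replicate 1 of either culture at 2 h, with adjusted p of up to 0.129 and 0.0673.

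EMP1 and PDP1 rose 2.53- and 2.41-fold, with edgeR adjusted p of 0.0413 and 0.0478. EMP1 encodes a small membrane glycoprotein and PDP1 a phosphatase that activates pyruvate dehydrogenase. EMP1 stayed lower in spheroids throughout, at 23.2 and 12 CPM at 2 h against 4.97 to 5.60 CPM earlier, than in monolayers, at 34.8 and 49.7 CPM against 15.2 to 27.7 CPM. MYADM and TM4SF1, which encode multispan membrane proteins, the kinase PLK2 and CDC42EP3, an effector of the GTPase CDC42, rose 1.86-, 1.61-, 1.55- and 1.93-fold. Their 2 h libraries nonetheless lay above the 4 earlier libraries of the same culture. For MYADM they held 320 and 482 CPM against 228 to 243 CPM in monolayers, and 279 and 203 CPM against 119 to 121 CPM in spheroids (edgeR adjusted p = 0.00801). The call of EMP1 held in 3 of 12 fits that left out 1 library and that of TM4SF1 in 6, with adjusted p of up to 0.194 and 0.165. The calls of PLK2, CDC42EP3 and PDP1 held in 1 of 12 fits that left out 1 library, with adjusted p of up to 0.254 for CDC42EP3, 0.291 for PDP1 and 0.293 for PLK2.

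DEPP1 (chr10:44970981-44978810), a target of FOXO factors linked to autophagy, was called lower. It was at 4.34 and 2.53 CPM in spheroids at 2 h against 8.16 to 22.5 CPM, and at 0.817 and 0.393 CPM in monolayers against 1.48 to 3.56 CPM, 4.49-fold lower (log2 fold change −2.17, SE 0.39, edgeR adjusted p = 0.0478). The groups did not overlap within a culture, though the monolayer values rest on few counts. The call was kept in 2 of 12 fits that left out 1 library, with an adjusted p of up to 0.179.

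The 3 next genes by p among those below the earlier libraries in both cultures were not called. ZNF692, a zinc finger protein, was at 25.3, 21.2, 15.9 and 15.8 CPM at 2 h against 29 to 47.3 CPM (edgeR adjusted p = 0.0767, or 0.0251 when Mono Before replicate 1 was left out). BTN3A1, a butyrophilin, was at 13.1, 10.3, 8.34 and 9.99 CPM against 15.2 to 23 CPM (adjusted p = 0.0835), and SNX33, a sorting nexin, at 9.09, 9.68, 13.7 and 15.9 CPM against 13.0 to 35.4 CPM (adjusted p = 0.0867). In each culture, both 2 h libraries lay below all 4 earlier libraries for 100 of all genes tested (0.668%).

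**Figure D2:**
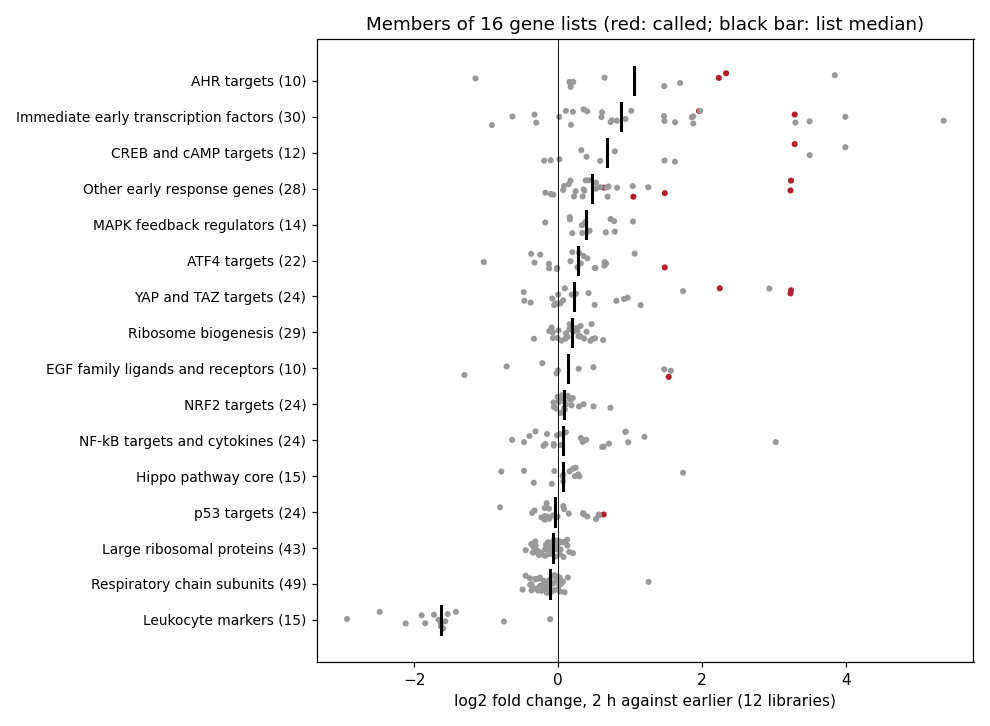
Log2 fold change (2 h against the 8 earlier libraries) of each tested member of 16 gene lists, with the number tested in brackets. Red points are called genes, grey points are not called, and the black bar is the list's median. The medians run from 1.06 for AHR targets to −1.63 for leukocyte markers, whose summed level was highest in 1 earlier library.

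Other lists held few or no called genes. Over all genes tested, edgeR called 0.14% higher and 0.0134% lower, and DESeq2 called 0.376% of its genes higher. An unadjusted edgeR p under 0.05 was found for 5.25%, and a log2 fold change above 0 for 47.6%. Against a median log2 fold change of −0.01 over all genes, MAPK feedback regulators (14 tested, 13 above 0) had a median of 0.39 with 0 called by edgeR or DESeq2 and 6 at an unadjusted p under 0.05. Among them SPRY4, an inhibitor of receptor tyrosine kinase signalling, had the smallest p (log2 fold change 0.78, edgeR adjusted p = 0.476). CREB and cAMP targets (12 tested, 10 above 0) had a median of 0.69 with NR4A1 called and 6 at an unadjusted p under 0.05. DESeq2 called 4 of them (ATF3, FOS, NR4A1 and NR4A2), and edgeR with the replicate block 2. Ribosome biogenesis genes (29 tested, 22 above 0) had a median of 0.19 with 0 called by either tool and 7 at an unadjusted p under 0.05, all higher. GNL3, nucleostemin, was at 300 and 286 CPM in monolayers and 219 and 216 CPM in spheroids at 2 h against 240 to 267 CPM and 159 to 166 CPM (log2 fold change 0.31, edgeR adjusted p = 0.493).

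Subunits of the respiratory chain (49 tested, 13 above 0) had a median of −0.12, with 0 called by either tool and 6 at an unadjusted p under 0.05, 5 of them lower. Large and small ribosomal proteins had medians of −0.08 (43 tested) and −0.12 (32 tested), again with 0 called by either tool and 2 and 4 at an unadjusted p under 0.05. Targets of NF-kB and cytokines (24 tested) had a median of 0.07, with 0 called by either tool and 3 at an unadjusted p under 0.05. The cytokine LIF had the smallest p of these, at 91.5 and 68.6 CPM in monolayers and 59.6 and 70.5 CPM in spheroids at 2 h, against 44.3 to 94.8 CPM and 26.2 to 47.2 CPM (edgeR adjusted p = 0.596). Its highest earlier library was Mono Before replicate 1, and it was called when that library was left out (log2 fold change 0.87, edgeR adjusted p = 0.0407). Of p53 targets PLK2 was the 1 called of 24 (median −0.05). Heat shock chaperones (18 tested), genes of the unfolded protein response (18), S phase genes (25) and genes of G2 and mitosis (23) had medians between −0.08 and 0.02, with 0 called by either tool and 0 at an unadjusted p under 0.05. THBS1, the top gene of the matrix list, had a log2 fold change of 0.73. It was not called in the main fit (edgeR adjusted p = 0.115) and was with the replicate block (0.0367). All 15 tested leukocyte markers had log2 fold changes below 0, with a median of −1.63, or −0.30 when Mono Before replicate 1 was left out (0 called by either tool, 2 at an unadjusted p under 0.05). GAPDH and ACTB were not called (log2 fold changes 0.14 and 0.08, edgeR adjusted p = 1).

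The 2 earlier times were also taken apart, in a fit with 3 times. Against the libraries before NEE 5 genes were called, all higher (0.0334%): TIPARP, CYP1B1, NR4A1, AMOTL2 and NFE2L2. Against those right away after NEE 5 were called, all higher (0.0334%): TIPARP, CYP1B1, NR4A1, NFE2L2 and CCN1. The 2 h libraries are shared by these contrasts, so each gene's values are given side by side. TIPARP had log2 fold changes of 2.24 against before and 2.23 against right away (edgeR adjusted p = 0.00257 and 0.00262), CYP1B1 of 2.42 and 2.25 (adjusted p = 0.00505 and 0.0115), NR4A1 of 3.24 and 3.34 (adjusted p = 0.0274 and 0.0324) and NFE2L2 of 1.40 and 1.32 (adjusted p = 0.0222 and 0.0324). AMOTL2 had 2.46 and 2.06 (adjusted p = 0.0232 and 0.0789), and CCN1 had 3.06 and 3.42 (adjusted p = 0.0986 and 0.0432). Over the 21 genes called higher the median was 1.40 against before and 1.38 against right away, and 0.08 between right away and before. Between right away and before, 0 genes were called by edgeR, and 232 had an unadjusted p under 0.05 (1.55%). Of 33367 genes with an adjusted p by DESeq2, it called 16 higher (0.048%) and 57 lower (0.171%) there.

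**Figure D3:**
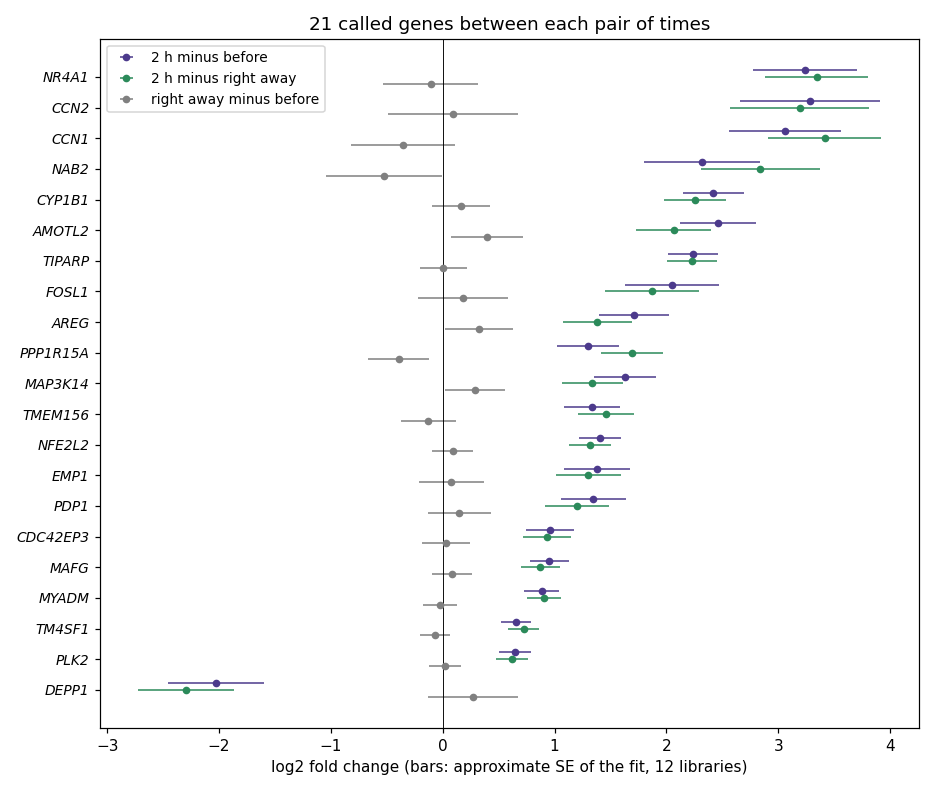
Log2 fold change (x axis) of 21 of the 23 called genes between each pair of times, with bars for the approximate standard error of the fit of 12 libraries. Purple and green give 2 h minus before and 2 h minus right away, grey gives right away minus before. For the 20 of these called higher, both 2 h values lie to the right of 0, while the grey points lie between −0.53 and 0.40.

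The difference at 2 h was compared between the cultures by an interaction term. By edgeR 0 genes were called (0%), with 314 at an unadjusted p under 0.05 (2.1%), and by DESeq2 1 of 33171 (0.00301%). Of the 21 genes called higher, 17 had the larger log2 fold change in spheroids, with medians of 1.74 there and 1.34 in monolayers. Over all genes tested these medians were −0.02 and −0.03, and the median interaction was 0.01. The share of all genes with the larger change in spheroids was not counted. At 2 h, spheroid replicate 1 lay above replicate 2 for 20 of the 21. TIPARP had 2.73 in spheroids and 1.68 in monolayers, a difference of 1.05 with an approximate 95% interval of 0.52 to 1.58 and an unadjusted edgeR p of 0.000506 (adjusted p = 1). CYP1B1 had 2.92 and 1.66, a difference of 1.25 with an interval of 0.57 to 1.93 (unadjusted p = 0.000943, adjusted p = 1). For TIPARP the earlier level was lower in spheroids, with a median of 63.5 CPM against 111 CPM in monolayers, while at 2 h all 4 libraries lay between 339 and 462 CPM. In 18 of the 21 genes the mean of the earlier libraries was higher in monolayers. Over all 21 the median ratio of monolayers to spheroids was 1.64. The share over all genes was not counted, so nothing is read from these values. For NFE2L2, MAP3K14 and MAFG the differences were −0.03, −0.01 and 0.09, with intervals of −0.77 to 0.71, −1.14 to 1.13 and −0.61 to 0.79, which allow sizeable differences in either direction.

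The other genes with the smallest interaction p were not called either (edgeR adjusted p = 1). AEN, a nuclease induced by p53, was at 216 and 166 CPM in spheroids at 2 h against 81.1 to 105 CPM, and at 271 and 268 CPM in monolayers against 227 to 320 CPM. MARCHF4, a ubiquitin ligase and the 1 gene that DESeq2 called, was at 1.62 and 1.33 CPM in spheroids at 2 h and at 0 in all 4 earlier ones, and in monolayers at 3.83 and 0.835 CPM against 1.42 to 5.78 CPM. When each culture was tested by itself in that fit, TIPARP and CYP1B1 were called in monolayers (2 genes, 0.0134%). In spheroids 8 were called (0.0534%): these 2, NR4A1, CCN1, AMOTL2, FOSB, ATF3 and PPARG, a nuclear receptor of lipid metabolism. Over both cultures PPARG was called when Mono Before replicate 1 was left out (edgeR adjusted p = 0.0216).

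**Figure D4:**
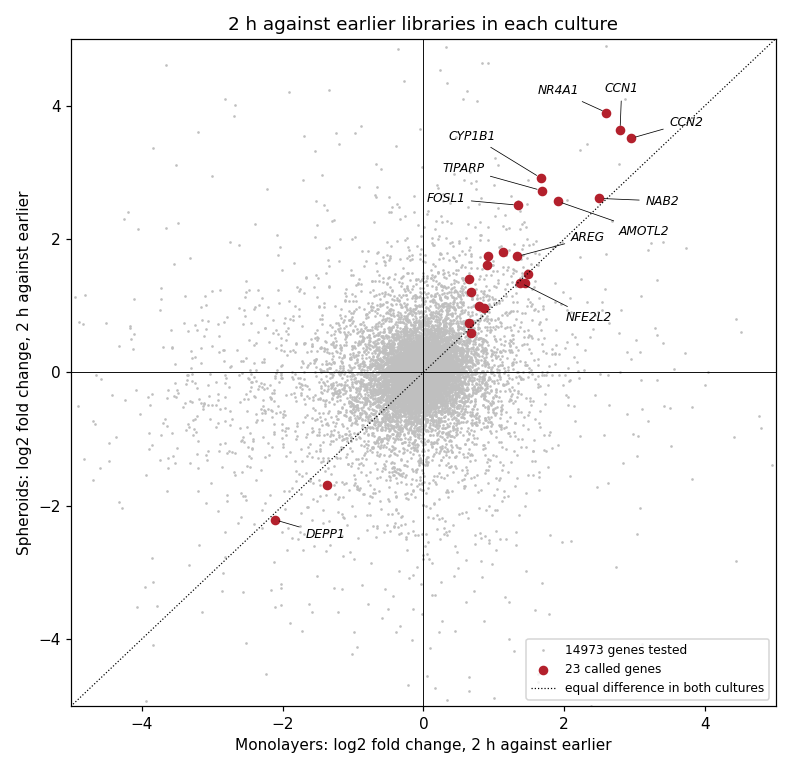
Log2 fold change at 2 h in monolayers (x axis) and in spheroids (y axis) from the fit with an interaction, for the 14973 genes tested (grey, of which 221 lie outside the axes) and the 23 called in the comparison over both cultures (red, some named). The dotted line marks equal differences, and 17 of the 21 genes called higher lie above it. The share of all genes above it was not counted.

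At 2 h the replicates of a culture lay close together for some of these genes and far apart for others. Replicate 1 was above replicate 2 in 20 of 21 genes in spheroids and in 16 in monolayers, with median ratios of 1.87 and 1.14. In spheroids it was more than 1.5 times as high for 12 of the 21, against 14.5% of 10006 genes with a mean of at least 5 CPM at 2 h, and in monolayers for 6, against 11.3% of 10003. NR4A1, CCN2, CCN1 and NAB2 had spheroid ratios of 4.31, 4.72, 6.08 and 4.26. TIPARP, CYP1B1, NFE2L2, TMEM156 and MAFG had ratios of 0.99 to 1.24 in both cultures. These gaps between replicates were not tested.

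**Figure D5:**
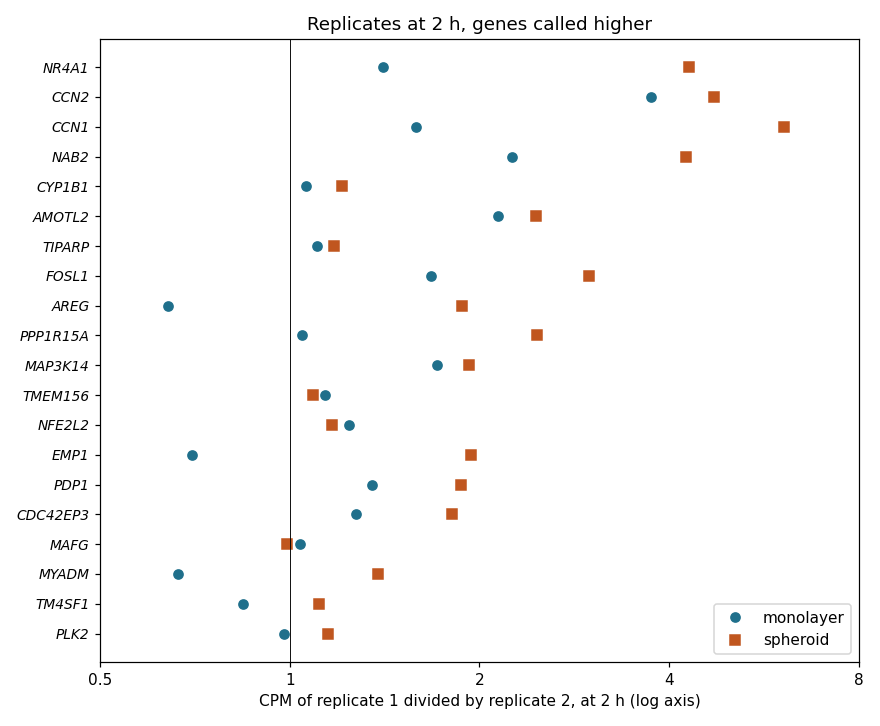
Level in replicate 1 divided by that in replicate 2 at 2 h (log axis) for 20 of the 21 genes called higher, in monolayers (blue circles) and spheroids (orange squares), with genes ordered by log2 fold change. Spheroid ratios reach 6.08 for CCN1, while TIPARP and CYP1B1 lie at 1.06 to 1.21 in both cultures.

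The libraries at 24 h, which no fit of the main result used, held lower levels again. In monolayers both lay below both 2 h libraries for all 21 genes, against 15.4% of all genes tested, and in spheroids for 20, against 13.9%. The 21 were chosen for high values in these same 2 h libraries, so nothing is read from these counts. The exception in spheroids was CDC42EP3, at 91.8 and 47.5 CPM against 162 and 89.3 CPM. TIPARP at 24 h was at 87.9 and 96.3 CPM in monolayers and 78.8 and 95.2 CPM in spheroids, and NR4A1 at 23.4 and 10.7 CPM and at 7.84 and 9.16 CPM. CYP1B1 stood at 125 and 232 CPM in monolayers and 130 and 243 CPM in spheroids, so that both spheroid libraries and replicate 2 of the monolayers lay above the earlier libraries of their culture. Both 24 h libraries lay above the earlier ones of their culture for 4 of the 21 genes in spheroids (CYP1B1, TIPARP, AREG and EMP1) and for 1, MAFG, in monolayers. AREG was at 7.17 and 10.6 CPM and EMP1 at 5.83 and 9.33 CPM in spheroids at 24 h.

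The called-higher genes spanned 3198 to 165103 bases in the GENCODE annotation, with a median of 19606 against 34512 for the 12726 protein-coding genes tested, and 14 of the 21 were shorter than that median. Their merged exons had a median of 5048 bases, against 5220. These lengths are a description, given without a test. The test had limited reach. On simulated counts of this design it recovered 51 of 100 genes changed by 2-fold and 93 of 100 changed by 4-fold, and for the interaction 0 of 100 and 36 of 100. The changed genes were drawn from those of the 14973 with a mean of at least 5 CPM. Of the unchanged genes 7 were called (0 for the interaction). No replicate batch or outlying library was simulated. The reach for genes of lower mean CPM and in the real counts was thus not measured.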

How the data were processed

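RNA of A549 lysates was sequenced as Smart-Seq2 libraries with paired ends. The deposited values are raw gene counts. Per the submitters' processing notes, the tools were FastQC, Trimmomatic, HISAT2 and featureCounts and the build was GRCh38. The sources used here do not give versions, annotation release, strandedness or the treatment of multi-mapping reads, so overlapping genes and near-identical copies are uncertain. All 37 mitochondrially encoded genes were at 0 in every library. Of 62700 listed genes, 58207 were placed by GENCODE release 29.

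Counts of 12 libraries were tested as deposited with edgeR 4.0.16 (TMM, robust quasi-likelihood F test, Benjamini-Hochberg adjustment) in R 4.3.3, for genes with CPM of at least 1 in at least 2 libraries. The main design was culture form plus 2 h, with 9 residual degrees of freedom (common biological coefficient of variation 0.446). Other fits added the interaction of culture and 2 h, or split the earlier libraries into 2 times (8 residual degrees of freedom each). Standard errors are approximate, taken as the log2 fold change divided by the root of F, and intervals of the interaction use them with 8 degrees of freedom. Gene lists got counts and medians, with no test.

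Genes were named by a rule: called protein-coding genes with a mean CPM of 5 or more where higher and separate libraries within both cultures, up to 12 of each sign by fold change (5 by p where fewer than 5 were called), TIPARP, CYP1B1, NR4A1, AMOTL2 and NFE2L2, up to 3 called members of each list or the member with the smallest p, the 5 smallest interaction p, GAPDH and ACTB. The remaining called genes and some list members were added after their values were seen. The comparison, the named genes and the lists were chosen with earlier results of these data known. The 7 other libraries entered no main fit.

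The labels' batch tag gives the replicate number, which was therefore treated as pairing samples, though what that batch was is not stated. Residual correlations of same-numbered libraries over 8529 genes were −0.0396 to 0.544 in 15 pairs of groups, with 13 over 0.1, and 0.194 to 0.544 in the 6 pairs within a culture. The replicates are biological per the series text, and no pair of replicates was a duplicate (mean chi-square per gene 55.8 to 229). Reads come from PCR without molecular identifiers, so floors of 3 counts cover counting error only. Alternatives were RLE and upper-quartile scaling, 3 other filters, DESeq2 1.42.0, replicate blocks, 16 lysate libraries, no culture block, group means, and leaving out each library. Promoters are RefSeq's (GRCh38.p14). The count fits were tested on simulated data. Python 3.11.15 with pandas, numpy and matplotlib did the rest. Some named genes and list members are not reported here.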

Additional observations from a re-analysis of the deposited data

Results flagged for a closer look

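In each culture the 4 earlier libraries of every named gene were searched for a single library far from the other 3 on the log2(CPM + 1) scale. Chance alone marks about 1 in 20 such groups, and 7 of 113 were marked (in 1 more, MARCHF4 in spheroids, all 4 were at 0). In monolayers right away after NEE, replicate 1 was low for LATS2 (0.874 CPM, the others 3.69 to 4.18 CPM) and high for TXNRD1 (2180 CPM, the others 2020 to 2030 CPM). Replicate 1 of the monolayers before NEE was high for LIF (94.8 CPM, the others 44.3 to 48.1 CPM) and for the leukocyte marker NKG7 (26.2 CPM, the others 0.908 to 1.26 CPM), and replicate 2 was high for MYADM (243 CPM, the others 228 to 230 CPM). In spheroids right away after NEE, replicate 1 was low for CRY1 (23.2 CPM, the others 30.4 to 31.6 CPM) and for MAFG (30.9 CPM, the others 36.4 to 36.9 CPM). CRY1 was not called in the main fit (log2 fold change 0.94, edgeR adjusted p = 0.137). Its call changed when Mono Before replicate 1 was left out (log2 fold change 1.07).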

How the results depend on the processing

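With 2 libraries per group, adjusted p-values near 0.05 depend on single libraries. Of the 23 called genes TIPARP, CYP1B1, NR4A1 and AMOTL2 were called under all 23 alternatives and 0 changed sign. The count of 23 genes was 22 with RLE and 20 with upper-quartile scaling. It moved to 151 with no filter on low counts (92 higher, 59 lower) and to 105 with DESeq2, over 17537 genes (66 higher, 39 lower). It was 42 with the replicate block, 61 with the replicate block within culture, 6 with no culture block and 7 from the group means of 6 groups. The cause was not tested. Leaving out 1 library gave 6 (without replicate 1 of the spheroids at 2 h) to 53 (without Mono Before replicate 1). The interaction had 31 with no filter and 1 with DESeq2, 0 with either replicate block and 0 to 0 with 1 library left out. Against before NEE the 5 genes became 158 with no filter, 94 with DESeq2, 8 with the replicate block, 13 with that within culture and 1 to 6 with 1 library left out, the 1 without replicate 1 of the spheroids before NEE. Against right away they became 91, 155, 14, 20 and 1 to 5 under the same settings, and 8 with the 16 lysate libraries. Calls at 1 remained without replicate 2 of the monolayers or either replicate of the spheroids right away after NEE. The log2 fold change of ACTB, not called, changed sign without replicate 1 of the spheroids at 2 h (−0.0070, and up to 0.16 without another library). A group left with 1 library was assumed to vary like the others.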
